A study of Mus musculus with 11 samples.

Results

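Cytotoxic T cells and natural killer (NK) cells kill their targets by releasing granules. Perforin opens the target's membrane and granzymes, a family of proteases, enter and trigger its death. T cells recognise peptides through a receptor that signals through the CD3 chains, with CD4 or CD8 as co-receptor. NK cells carry inhibitory and activating receptors instead, many of them lectin-like proteins encoded in a cluster on mouse chromosome 6, and the liver is rich in such cells. Described here are 10 genes of this system among the 43346 genes of the deposited table: Cd3e, Cd8a and Cd4 for T cells, Gzma, Gzmb, Prf1 and Nkg7 for the granule, and Ncr1, Klrb1b and Klrb1c for NK receptors. They were chosen by name with earlier results of these data known, and all 10 were found once in the table.

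RNA-seq was made from livers of FVB/NJ mice. In every group the labelled disease is hepatocellular carcinoma induced by expressing MET, a growth factor receptor, and β-catenin, the effector of Wnt signalling, and the labelled treatment is anti-PD-1, an antibody that blocks a brake on T cells. The groups were 6 libraries labelled responder, 4 labelled non-responder and 1 with the response label non treatment, which is called untreated here although its treatment label names the antibody too. Neither the delivery of the oncogenes nor whether libraries came from separate mice is labelled, so the p-values reflect only how these libraries vary, which may be technical.

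The 10 genes were scarce in these livers. Together they took between 0.000447% and 0.000910% of the gene counts in responders, between 0.00111% and 0.00431% in non-responders and 0.000379% in the untreated library. Responder libraries had total gene counts of 17876515 (replicate 4) to 40565708, non-responder libraries had 25542066 to 39941835, and the untreated one had 49884800. Several libraries stood apart. Across all genes, non-responder replicate 1 differed from the other non-responders by 30.9 to 39.9 times counting noise, against 5.48 to 11.1 times among those and 4.28 to 11.6 times among responders. Non-responder replicate 2 held 1000 reads of Klrb1b, responder replicate 6 held 75 of the 90 responder reads of Klrb1b, and responder replicate 3 had the highest level of Gzma. Non-responder replicate 1 also had 67.5% of the genes' exon reads in the last exon, against 40.9% to 57.8% in responders and 47.8% to 51.9% in the other non-responders. Of the 311 such reads in non-responder replicate 1, 123 lay in the last exon of Klrb1b alone. That share therefore does not describe the library as a whole. In whole tissue, fewer cells of a type and less RNA per cell cannot be told apart.

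Levels are given as CPM, counts scaled to library size by TMM. Responders had lower levels of 4 of the 10 genes than non-responders, and higher levels of none, by edgeR's quasi-likelihood test with an adjusted p under 0.05. These were Prf1, Gzmb, Klrb1b and Klrb1c, with log2 fold changes (responder over non-responder) of -1.69 to -1.40 for the first pair and -4.49 to -3.11 for the second. Of all 17610 genes tested, 5.82% were called lower in responders and 4.11% higher. For the same 4 genes every responder lay below every non-responder, as was the case for 5.66% of all tested genes. The T cell genes Cd3e, Cd4 and Cd8a, the granule genes Gzma and Nkg7 and the NK receptor gene Ncr1 did not pass. The median log2 fold change over the 10 genes was -0.96, against -0.02 over all tested genes. The calls depended on individual libraries. With non-responder replicate 2 left out none of the 10 genes passed, and the same held without responder replicates 1, 2 and 5 in turn, while 0.441%, 2.42%, 1.85% and 1.77% of the genes tested were still called. The background was 5.7%, 10.5% and 10.1% without responder replicates 3, 4 and 6, and 9.6%, 11.1% and 8.9% without non-responder replicates 1, 3 and 4, where 2 to 4 of the 10 genes passed. No gene of the 10 passed with the title number of each sample as covariate, where 1 gene was called in all, 0.00568% of those tested. RLE, upper quartile and library size scaling called 9.97%, 10% and 9.47% of all genes and 4 of the 10, and the fit with the untreated library as another group called 8.72% and 4. DESeq2 and limma-voom called 17.4% and 11.4% of all genes and 3 of the 10 each, and 4.26% without a filter and 12.4% with a stricter one were called, with 2 and 1 of the 10. Responders carry the title numbers 1, 3, 9, 13, 16 and 29, non-responders 26, 30, 32 and 37, and the untreated library 11. Only responder replicate 6 (29) and non-responder replicate 1 (26) cross, so number and response can hardly be told apart. In the fit with this covariate the SE of Gzmb rose from 0.39 to 0.71 and that of Prf1 from 0.39 to 0.66. The loss of calls there does not show that the differences went away.

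**Figure D1:**
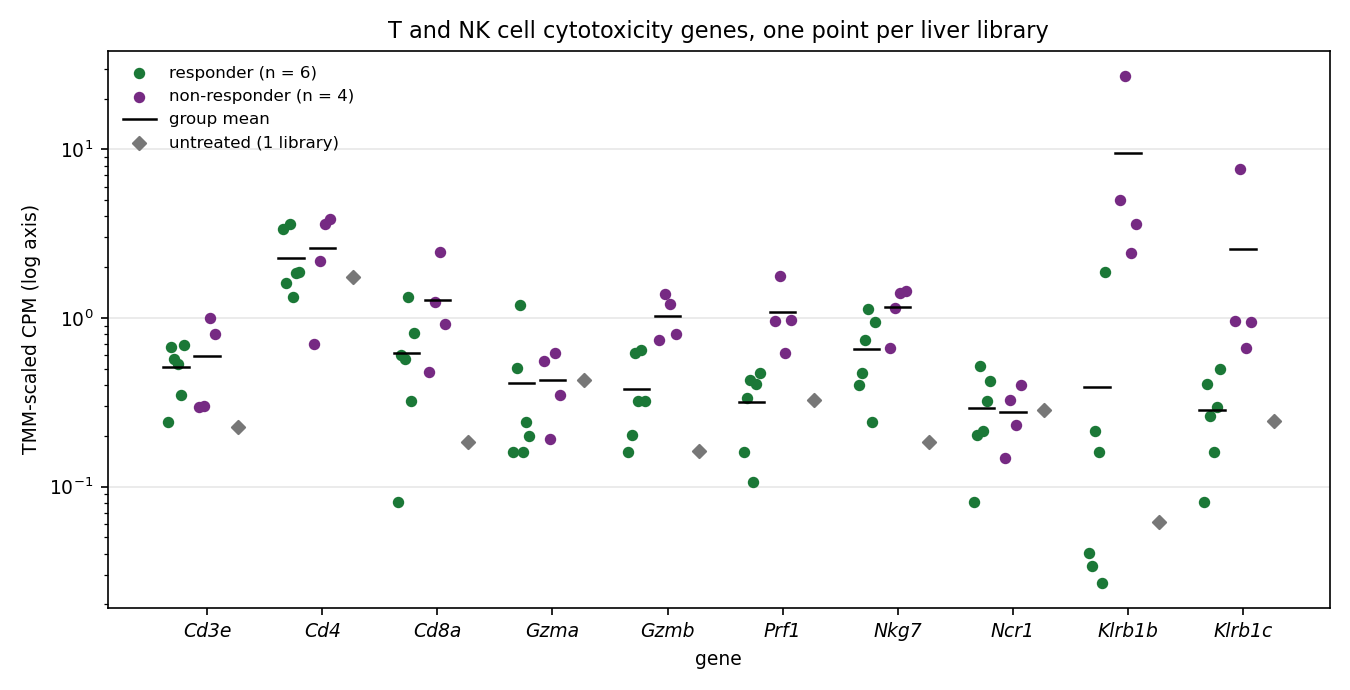
Levels of the 10 genes in each library, as TMM-scaled CPM on a log axis, with responders left, non-responders in the middle and the untreated library right. The bar is the group mean. For Gzmb, Prf1, Klrb1b and Klrb1c the 2 groups of points do not overlap, and non-responder replicate 2 stands at 27.2 CPM of Klrb1b.

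Cd3e (ENSMUSG00000032093, mm10 chromosome 9, 44998743 to 45009590) encodes the ε chain of CD3, present on all T cells. It had 0.242, 0.553 and 0.694 CPM (lowest, median and highest) in responders, against 0.295, 0.299, 1.0003 and 0.798 CPM in non-responder replicates 1 to 4. The ranges overlapped over most of their length. Cd3e averaged 0.511 ± 0.180 CPM in responders (SD, n = 6) and 0.598 ± 0.357 CPM in non-responders (SD, n = 4), with a log2 difference of -0.23 ± 0.42 (SE) that missed the threshold (edgeR adjusted p = 0.760). Behind these levels were 101 reads summed over responders and 90 over non-responders.

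Cd4 (ENSMUSG00000023274, chromosome 6, 124864692 to 124888221), the co-receptor of helper T cells, had the highest mean RPKM of the 3 T cell genes. It had 1.34, 1.86 and 3.61 CPM (lowest, median and highest) in responders, and 0.701, 2.17, 3.62 and 3.87 CPM in non-responder replicates 1 to 4. The lowest value of all was in non-responder replicate 1. Its log2 difference was -0.19 ± 0.43 (SE, edgeR adjusted p = 0.815). Leaving out that library gave -0.49, still short of the threshold. Cd8a (ENSMUSG00000053977, chromosome 6, 71373427 to 71379171), the co-receptor of cytotoxic T cells that some dendritic cells also carry, spread more widely. It had 0.0806, 0.588 and 1.34 CPM (lowest, median and highest) in responders, against 0.479, 1.25, 2.46 and 0.923 CPM in non-responder replicates 1 to 4. Responder replicate 1 was lowest, with 2 reads, non-responder replicate 3 was highest, with 96, and the groups overlapped. The log2 difference was -1.07 ± 0.56 (SE), short of the threshold (edgeR adjusted p = 0.244).

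Granzyme A, a protease with trypsin-like specificity, is made by NK cells and cytotoxic T cells. Its gene Gzma (ENSMUSG00000023132, chromosome 13, 113093825 to 113100979) had 0.161, 0.221 and 1.19 CPM (lowest, median and highest) in responders, and 0.553, 0.190, 0.616 and 0.349 CPM in non-responder replicates 1 to 4. The highest library of all was responder replicate 3, with 50 of the 89 responder reads. Its log2 difference was 0.01 ± 0.57 (SE, edgeR adjusted p = 0.995), and without that library it was -0.71, also short of the threshold.

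Granzyme B cleaves after aspartate and sets off apoptosis in the target. Gzmb (ENSMUSG00000015437, chromosome 14, 56258856 to 56262260) had 0.161, 0.322 and 0.648 CPM (lowest, median and highest) in responders, against 0.738, 1.39, 1.21 and 0.798 CPM in non-responder replicates 1 to 4. The highest responder, replicate 5, stood just below the lowest non-responder, replicate 1. Means were 0.379 ± 0.207 CPM in responders (SD, n = 6) and 1.03 ± 0.315 CPM in non-responders (SD, n = 4), and Gzmb fell by 1.40 on the log2 scale in responders (SE 0.39, edgeR adjusted p = 0.0431). It passed in 2 of the 10 fits that left out 1 library, with adjusted p up to 0.137 and log2 fold changes of -1.61 to -1.22. With the title number as a covariate it had -0.998 ± 0.71 (SE). Perforin, the pore-forming protein, showed the same separation. Prf1 (ENSMUSG00000037202, chromosome 10, 61297836 to 61304263) had 0.107, 0.371 and 0.471 CPM (lowest, median and highest) in responders, against 0.959, 1.77, 0.616 and 0.973 CPM in non-responder replicates 1 to 4. All 4 non-responders were above all 6 responders. Prf1 averaged 0.318 ± 0.150 CPM in responders (SD, n = 6) and 1.08 ± 0.488 CPM in non-responders (SD, n = 4). It fell by 1.69 on the log2 scale in responders (SE 0.39, edgeR adjusted p = 0.0276). It passed in 6 of the 10 fits that left out 1 library, with adjusted p up to 0.101 and log2 fold changes of -1.88 to -1.33. With the title number as a covariate it had -1.27 ± 0.66 (SE). The reads behind these values were few, 79 of Gzmb and 68 of Prf1 in the 6 responders together, 150 and 154 in the 4 non-responders.

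Nkg7 (ENSMUSG00000004612, chromosome 7, 43437073 to 43438246) encodes a membrane protein of the cytotoxic granule that T and NK cells share. It had 0.243, 0.604 and 1.13 CPM (lowest, median and highest) in responders, and 0.664, 1.14, 1.41 and 1.45 CPM in non-responder replicates 1 to 4. The groups overlapped through responder replicates 3, 4 and 6 and non-responder replicate 1. Nkg7 had a log2 fold change of -0.86 ± 0.40 (SE), short of the threshold (edgeR adjusted p = 0.187), and -0.11 with the title number as a covariate. Set against the T cell gene of the same library, there were between 0.3 and 1.85 reads of Gzmb per read of Cd3e in responders, and 2.50, 4.64, 1.21 and 1 in non-responder replicates 1 to 4. Reads of Prf1 per read of Cd3e ran from 0.200 to 1.15 in responders, and were 3.25, 5.91, 0.615 and 1.22 in non-responder replicates 1 to 4. In both ratios the ranges overlapped, and the values of non-responder replicates 1 and 2 were above those of every responder. These ratios rest on few reads. Cd3e had 6 to 28 reads a library in responders, and 8, 11, 39 and 32 in non-responder replicates 1 to 4.

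**Figure D2:**
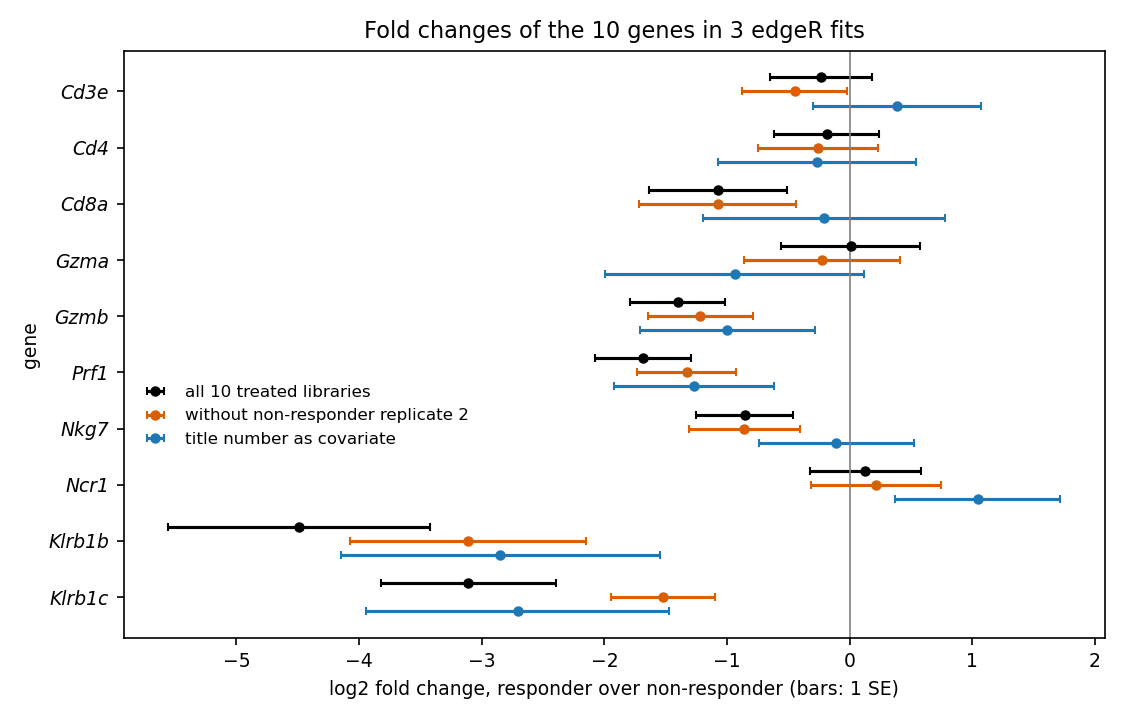
Log2 fold changes (responder over non-responder) of the 10 genes with 1 SE, in edgeR fits on all 10 treated libraries (black), without non-responder replicate 2 (orange) and with the title number as a covariate (blue). Klrb1b stands at -4.49, -3.11 and -2.85 in these fits, and Gzmb and Prf1 stay below 0 in the 3 fits.

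The promoters of Gzmb and Prf1 are shown because the levels of these effector genes were lower together. Each line gives the 250 bases before the RefSeq start (build GRCm38.p6), Gzmb on the minus strand at chr14:56262335-56262584 and Prf1 on the plus strand at chr10:61297586-61297835, with the letters of a RUNX motif (TGTGGT) or a T-box motif (GTGTGA), on either strand, in capitals.

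Gzmb: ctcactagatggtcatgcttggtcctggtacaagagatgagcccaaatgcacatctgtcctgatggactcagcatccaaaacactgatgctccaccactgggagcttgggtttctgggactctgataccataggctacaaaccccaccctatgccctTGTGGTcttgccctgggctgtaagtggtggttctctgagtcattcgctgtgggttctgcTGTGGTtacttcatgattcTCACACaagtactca

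Prf1: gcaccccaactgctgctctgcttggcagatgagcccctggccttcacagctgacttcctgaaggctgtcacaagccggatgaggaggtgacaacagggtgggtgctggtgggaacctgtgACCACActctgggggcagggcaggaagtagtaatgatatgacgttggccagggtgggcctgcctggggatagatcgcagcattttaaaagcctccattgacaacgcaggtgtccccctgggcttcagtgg

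Gzmb held 2 RUNX motifs and 1 T-box motif, which did not overlap each other, and Prf1 held 1 RUNX motif. Of the 10 genes 9 had a promoter in the RefSeq table. Among these, 6 held the RUNX letters, 3 the T-box letters and 1 the STAT letters TTCNNNGAA, where 14.2%, 12.2% and 7.18% of 27025 promoters of the same length did. A match is a description of the letters in this window. The genes that passed and those that did not both had matches: Gzma, Nkg7 and Ncr1 held RUNX letters and Klrb1b held none of the 3 motifs.

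Ncr1 encodes NKp46, an activating receptor that marks NK cells and related innate lymphoid cells. Ncr1 (ENSMUSG00000062524, chromosome 7, 4337724 to 4345164) had 0.0806, 0.269 and 0.522 CPM (lowest, median and highest) in responders, against 0.148, 0.326, 0.231 and 0.399 CPM in non-responder replicates 1 to 4. The responder range enclosed all 4 non-responders. The log2 difference was 0.13 ± 0.45 (SE, edgeR adjusted p = 0.886), from 63 reads summed over responders and 41 over non-responders.

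Klrb1b encodes an inhibitory lectin-like receptor of mouse NK cells, whose ligand Clr-b is the product of Clec2d. Klrb1c, its neighbour in the same cluster, encodes the activating receptor known as NK1.1. Klrb1b (ENSMUSG00000079298, chromosome 6, 128813706 to 128826331) had 0.0270, 0.101 and 1.86 CPM (lowest, median and highest) in responders, against 4.98, 27.2, 2.44 and 3.59 CPM in non-responder replicates 1 to 4. In reads these were 1, 1, 9, 3, 1 and 75 in responder replicates 1 to 6, and 135, 1000, 95 and 144 in non-responder replicates 1 to 4. Responder replicate 6 stood apart from the other responders and below all non-responders. Klrb1b averaged 0.389 ± 0.725 CPM in responders (SD, n = 6) and 9.55 ± 11.8 CPM in non-responders (SD, n = 4), with a log2 difference of -4.49 ± 1.07 (SE, edgeR adjusted p = 0.0310). It passed in 5 of the 10 fits that left out 1 library. Without non-responder replicate 2 the log2 fold change was -3.11 (edgeR adjusted p = 0.107), and without responder replicate 6 it was -6.56 (edgeR adjusted p = 0.0111). It had met the filter on low counts in 1 responder and in all 4 non-responders, so a gene of this pattern was tested only because it was high in non-responders.

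Reads of Klrb1b were set against those of the NK marker Ncr1 in the same library. There were between 0.0833 and 4.41 reads of Klrb1b per read of Ncr1 in responders, between 9 and 83.3 in non-responders and 0.214 in the untreated library. The ranges of responders and non-responders did not overlap. The Klrb1b reads in the ratio already did not, so the ratio adds no separate result. Ncr1 had only 2 to 22 reads a library in responders and 4 to 16 in non-responders. The 5 libraries with title numbers of 26 and above (responder replicate 6 and all non-responders) held 75 to 1000 reads of Klrb1b, and the 6 with lower numbers held 1 to 9. The title number nearly separates the groups, so its part in this difference cannot be told apart from that of response. The fit with it as a covariate gave -2.85 ± 1.30 (SE, edgeR adjusted p = 0.479).

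Klrb1c (ENSMUSG00000030325, chromosome 6, 128778485 to 128789215) had 0.0806, 0.279 and 0.496 CPM (lowest, median and highest) in responders, against 0.959, 7.67, 0.667 and 0.948 CPM in non-responder replicates 1 to 4. Non-responder replicate 2 held 282 of the 372 non-responder reads. The means were 0.283 ± 0.153 CPM in responders (SD, n = 6) and 2.56 ± 3.41 CPM in non-responders (SD, n = 4), with a log2 difference of -3.11 ± 0.72 (SE, edgeR adjusted p = 0.0268). It was -1.52 without non-responder replicate 2 (edgeR adjusted p = 0.0870), and limma-voom did not call Klrb1c (adjusted p = 0.0661).

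The exon table shows where these reads fell, and the reads of the pair did not cover either transcript evenly. Over all 11 libraries, exons 1 to 3 of Klrb1b held 542 reads, exons 4 and 5 together 18 and exon 6, the last, 1041. Klrb1c had the opposite gap: exons 1 and 2 held 1 read, exon 3 held 17, exons 4 and 5 held 345 and exon 6 held 199. Exons 4 and 5 of Klrb1c held 0, 1, 5, 1, 3 and 12 reads in responder replicates 1 to 6, and 21, 257, 16 and 28 in non-responder replicates 1 to 4. The high libraries were thus the same ones for exons 1 to 3 of Klrb1b and for exons 4 and 5 of Klrb1c. The first 2 exons of Klrb1c were at 0 in 10 of the 11 libraries, all 4 non-responders included. Exon 6 held 60.9% of the Klrb1c exon reads in responders and 30.7% in non-responders. The levels of Klrb1b and Klrb1c are therefore uncertain as levels of separate genes in all non-responders, the call on Klrb1c is uncertain, and the 2 calls are not independent. A read that spans exons is listed in each, so exon sums exceed gene counts.

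**Figure D3:**
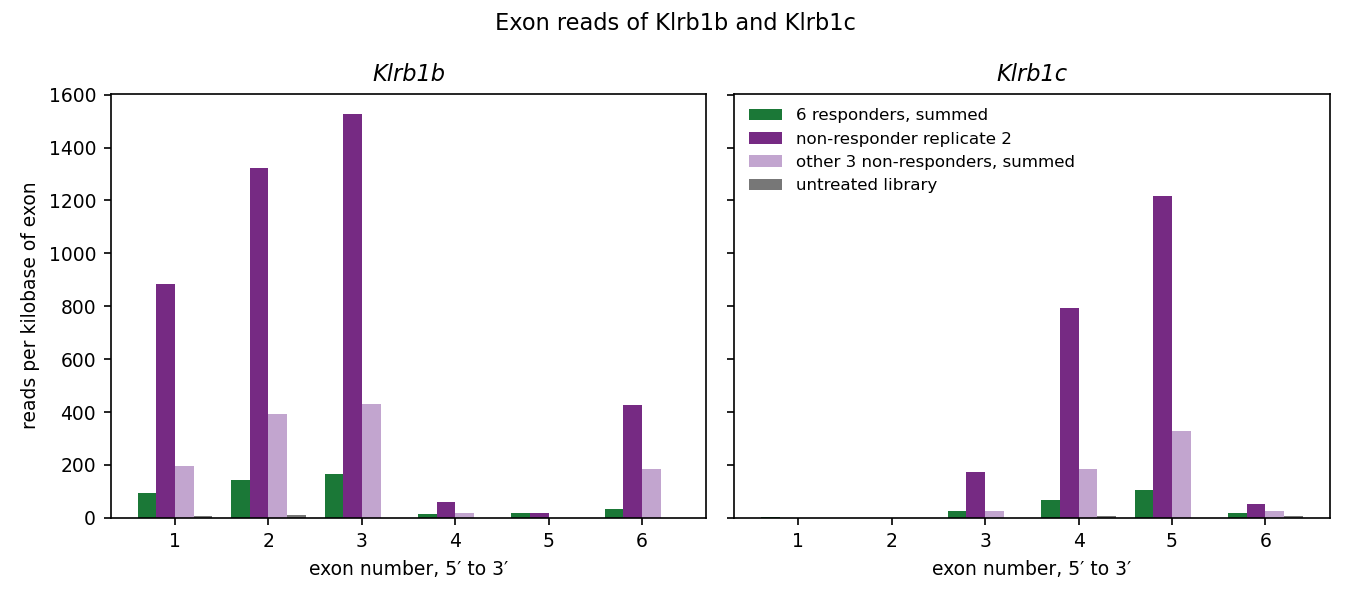
Reads per kilobase of each exon of Klrb1b (left) and Klrb1c (right), numbered from the 5′ end, summed over 6 responders, in non-responder replicate 2, summed over the other 3 non-responders and in the untreated library. Klrb1b has bars at exons 1 to 3 and 6 and almost none at exons 4 and 5, while Klrb1c has its tallest bars at exons 4 and 5 and none to speak of at exons 1 and 2.

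The pair's exons 2 and 5, which have equal lengths in both genes, are shown because reads of exon 2 were listed under Klrb1b and reads of exon 5 under Klrb1c. The sequences are those of the GENCODE M21 transcripts (GRCm38, the build of mm10, from C57BL/6J mice and not FVB/NJ), minus strand, all coding. Capitals mark the bases that differ between the pair. Exon 2 lies at chr6:128820942-128821040 in Klrb1b and at chr6:128785925-128786023 in Klrb1c, exon 5 at chr6:128818473-128818588 in Klrb1b and at chr6:128783664-128783779 in Klrb1c.

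Klrb1b exon 2: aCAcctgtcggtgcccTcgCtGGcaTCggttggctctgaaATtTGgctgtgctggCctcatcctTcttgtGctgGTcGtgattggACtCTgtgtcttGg

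Klrb1c exon 2: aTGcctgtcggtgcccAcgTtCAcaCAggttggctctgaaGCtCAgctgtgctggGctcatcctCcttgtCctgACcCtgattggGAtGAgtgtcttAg

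Klrb1b exon 5: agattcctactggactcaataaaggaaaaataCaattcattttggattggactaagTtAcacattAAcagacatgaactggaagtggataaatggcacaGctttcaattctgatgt

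Klrb1c exon 5: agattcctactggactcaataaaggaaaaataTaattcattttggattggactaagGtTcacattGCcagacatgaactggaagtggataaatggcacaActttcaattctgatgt

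Exon 2 differed at 23 of 99 bases (76.8% identity, longest shared run 13 bases), and exon 5 at 6 of 116 (94.8% identity, longest shared run 32 bases). In non-responder replicate 2, exon 2 held 131 reads in Klrb1b and 0 in Klrb1c, and exon 5 held 2 reads in Klrb1b and 141 in Klrb1c. Exon 5 of the pair is thus the more alike of the 2, and its reads were nearly all listed under Klrb1c. Genes of this cluster differ between mouse strains, and the libraries are from another strain than the reference. The part of that difference in the read placement was not tested.

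The relatives of the pair did not pass the filter on low counts, since Klrb1 was over it in 3 treated libraries and Klrb1a in 2. Klrb1 had 14 reads summed over responders and 98 over non-responders, and Klrb1a 13 and 92. Klrb1f had 3 reads summed over responders and 11 over non-responders. Of the 92 non-responder reads of Klrb1a, replicate 2 held 55, and Klrb1 was highest in replicate 3 with 47.

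The other genes of the system were read from 8 lists of 127 genes, of which 79 were tested. Without the 10 genes, 69 were tested and 2 were lower and 2 higher in responders, 5.80% in all, against 9.93% of all tested genes. In the T cell receptor list 1 of 10 tested genes was lower, Trac, the constant part of the receptor's α chain, at -1.57 ± 0.43 (SE, edgeR adjusted p = 0.0427). Trac averaged 0.296 ± 0.123 CPM in responders (SD, n = 6) and 0.876 ± 0.445 CPM in non-responders (SD, n = 4), and the groups overlapped through non-responder replicate 1. Trac passed in 2 of the 10 fits that left out 1 library, and limma-voom did not call it (adjusted p = 0.0664). The list's median log2 fold change was -0.49, and 9 of its 10 tested genes had a negative value. Cd3d stood at -0.28, Cd3g at -0.52 and Cd247, the ζ chain, at 0.05. Trbc1 and Trbc2, for the constant part of the β chain, had -1.05 (edgeR adjusted p = 0.101) and -0.65 and did not pass. In the list of T cell signalling and surface genes 1 of 17 was lower, Tcf7, a transcription factor of T cells and of Wnt signalling that other cells also express. It averaged 8.55 ± 5.19 CPM in responders (SD, n = 6) and 23.4 ± 7.09 CPM in non-responders (SD, n = 4), a log2 difference of -1.46 ± 0.40 (SE, edgeR adjusted p = 0.0437), and the median of that list was -0.33. The signalling kinase genes Lck and Zap70 had -0.49 and 0.47 and did not pass.

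Of 14 tested genes of the granule and killing list, Prf1 and Gzmb were lower and 12 did not pass, with a median of -0.11. Gzmc, Gzmd, Gzme, Gzmf, Gzmg, Gzmk and Gzmn had 0 reads in all 11 libraries. The death ligand gene Fasl had 20 reads summed over responders and 31 over non-responders and was not tested, and Ifng had 11 and 8. Of 13 tested NK receptor genes Klrb1b and Klrb1c were lower and 11 did not pass, with a median of -0.12. As given above, the calls on this pair are not independent. Klrd1 and Klrk1, which encode CD94 and NKG2D, had -0.41 and -0.12, and Cd244 had -1.12 (edgeR adjusted p = 0.0938).

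Clec2d, the ligand gene of the Klrb1b receptor, was higher in responders. It had 89.5, 129 and 182 CPM (lowest, median and highest) in responders, against 61.8, 41.4, 88.4 and 78.3 CPM in non-responder replicates 1 to 4. The lowest responder, replicate 6, was just above the highest non-responder, replicate 3. Clec2d averaged 135 ± 31.9 CPM in responders (SD, n = 6) and 67.5 ± 20.5 CPM in non-responders (SD, n = 4), a log2 difference of 1.001 ± 0.23 (SE, edgeR adjusted p = 0.0273), and the other 3 tested Clec2 genes did not pass. Of 17 transcription factors and cytokine receptors of lymphocytes, Nfil3 was higher in responders at 0.69 ± 0.17 (SE, edgeR adjusted p = 0.0325). Nfil3 is needed for NK cell development and is also expressed by hepatocytes, and it averaged 18.5 ± 2.20 CPM in responders (SD, n = 6) and 11.4 ± 3.18 CPM in non-responders (SD, n = 4). The lineage factors Tbx21 and Eomes had 0.30 and -0.94 and did not pass. Neither of the 2 tested cytokine genes passed, Il15 at -0.49 and Il18 at 0.13, nor did the granzyme inhibitor genes Serpinb6b and Serpinb9, at -0.24 and -0.08; in these 2 lists no gene had an unadjusted p under 0.05 and DESeq2 and limma-voom called 0. Trac, Tcf7, Clec2d and Nfil3 all missed the threshold without non-responder replicate 2 (edgeR adjusted p = 0.105, 0.111, 0.0759 and 0.0556).

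**Figure D4:**
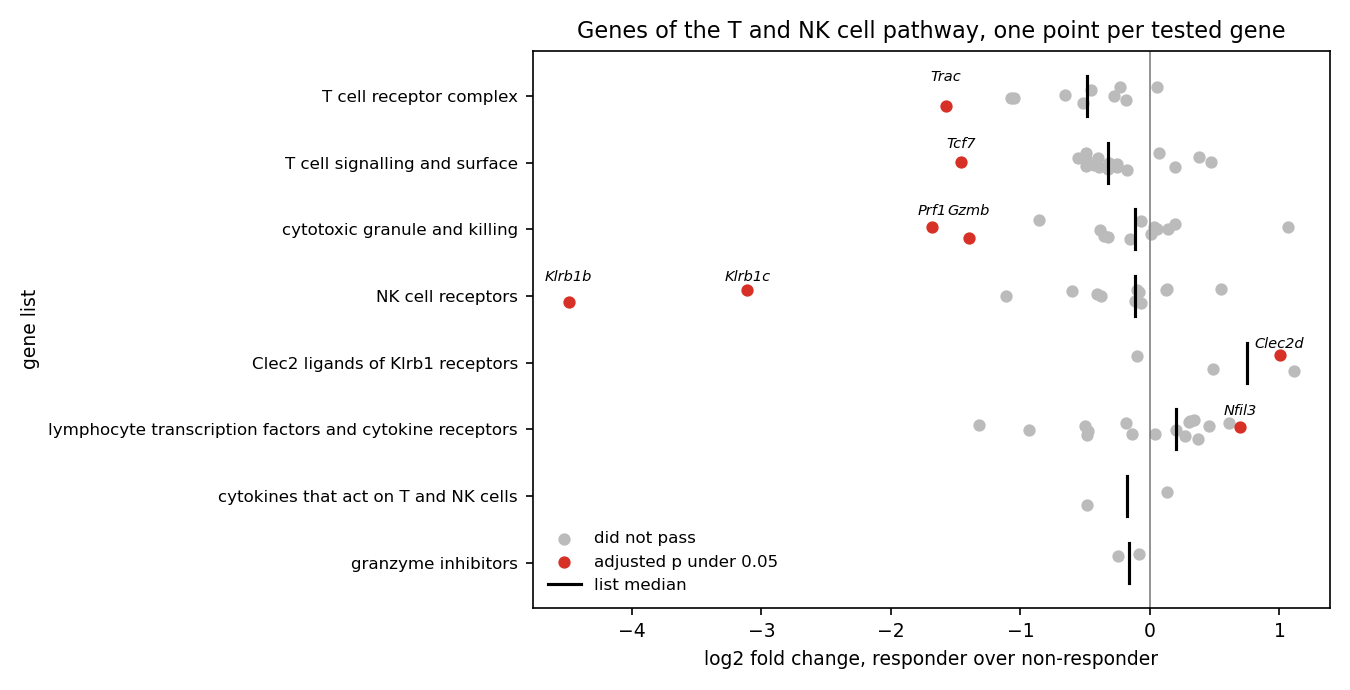
Log2 fold changes (responder over non-responder) of the tested genes in 8 lists of the T and NK cell system, 1 point a gene, red where the edgeR adjusted p was under 0.05, with the list median as a bar. Of the 79 genes 6 are red on the left and 2, Clec2d and Nfil3, on the right.

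Markers of other cells of the liver gave the setting of these values. Of 7 leukocyte genes, Ptprc (CD45) among them, none passed in edgeR's test, none had an unadjusted p under 0.05 and DESeq2 and limma-voom called 0. Their summed level ran from 32.04 to 96.4 CPM in responders and from 24.1 to 68.8 in non-responders. None of 5 tested B cell genes passed either, nor of 7 Kupffer cell genes, 4 neutrophil genes or 5 dendritic cell genes (1 dendritic gene had an unadjusted p under 0.05, and DESeq2 and limma-voom called 0 in these lists). Non-responder replicate 1 was below every other treated library in all 7 Kupffer cell genes. Adgre1 had 0.959 CPM there, against 18.9, 17.8 and 17.1 CPM in non-responder replicates 2 to 4. Ptprc had 4.87 CPM there, against 22.8, 24.9 and 19.0 CPM. These misses therefore do not show equal cell content in the groups. The 5 mast cell and basophil genes were too scarce to test, with Fcer1a at 0. Of 5 hepatocyte genes Apoa1 was lower and Tat higher in responders in edgeR's test, while DESeq2 called 4 and limma-voom 3. Their summed level was 60486 to 75454 CPM in responders and 90321 to 121021 CPM in non-responders. Most of it was Alb, which averaged 56656 ± 5149 CPM in responders (SD, n = 6) and 85690 ± 7456 CPM in non-responders (SD, n = 4) and missed the threshold (edgeR adjusted p = 0.0524). Ttr had the opposite direction, with 3910 ± 550 CPM in responders (SD, n = 6) and 2237 ± 843 CPM in non-responders (SD, n = 4), no overlap and a log2 difference of 0.81 that missed the threshold (edgeR adjusted p = 0.0765). Of 5 endothelial genes Lyve1 was lower in responders at -1.44 (edgeR adjusted p = 0.0149), while Pecam1, Stab2, Clec4g and Cdh5 had -0.30, 0.29, 0.61 and 0.15 and did not pass. Lyve1, Apoa1 and Tat missed the threshold without non-responder replicate 2 (edgeR adjusted p = 0.0557, 0.0749 and 0.113). No cholangiocyte gene of 4 and no stellate cell gene of 5 passed, with 1 and 3 at an unadjusted p under 0.05, 0 and 1 called by DESeq2 and 0 and 0 by limma-voom. The hepatocyte sums did not overlap between the groups, though single hepatocyte genes differed in direction, and their part in the results was not tested.

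Levels of different genes can be compared per length. In the authors' RPKM over all 11 libraries, the mean was 1.19 ± 2.59 (SD, n = 11) for Klrb1b, 0.630 ± 0.359 for Nkg7, 0.397 ± 0.186 for Cd4 and 0.334 ± 0.264 for Gzma. Gzmb, Klrb1c, Cd3e, Prf1, Cd8a and Ncr1 followed with means of 0.295, 0.266, 0.247, 0.204, 0.182 and 0.129 RPKM. No gene differed from its neighbour in this order by more than the larger of their SDs. By medians over the libraries Nkg7 was first at 0.632 RPKM and Klrb1b last at 0.0724 RPKM, since the mean of Klrb1b rests on non-responder replicate 2 at 8.79 RPKM. Cd4 exceeded Cd8a in RPKM in 10 of the 11 libraries, by 1.13 to 32.6 times, and responder replicate 4 had 0.776 times as much.

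The untreated library lay below all 10 treated libraries for Cd3e and Nkg7 and within their range for the other 8, and was below every treated library in 7.99% of all tested genes and above in 8.15%. Nkg7 had 0.184 CPM there, from 9 reads (exact 95% Poisson interval 0.0841 to 0.349, counting error only), against 0.243 or more in treated libraries. Cd3e had 0.225 CPM (0.112 to 0.402) from 11 reads. Gzmb had 0.164 CPM (0.0706 to 0.322) and Prf1 0.327 CPM (0.187 to 0.531), both within the range of responders and below all non-responders. Klrb1b had 3 reads, 0.0613 CPM (0.0126 to 0.179), and Klrb1c 0.245 CPM (0.127 to 0.429). For 7 of the 10 genes the untreated library was below all 4 non-responders, which held for 25.9% of all tested genes. The 7 include Gzmb, Prf1, Klrb1b and Klrb1c, where all non-responders were already above all responders. The count is therefore not a result separate from those calls. There is no replicate of this library and no test.

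For each of the 10 genes the tested genes most like it were found. Likeness was the root mean square difference between centred log2(CPM + 0.5) profiles over the 11 libraries, smaller being more alike, and the 2 nearest genes were taken. The nearest to Klrb1b were Sidt1 and Prom2 (0.487 and 0.523, where Klrb1b itself varied by 1.80). Sidt1 had 17.99 CPM in non-responder replicate 2 and 0.135 CPM in its lowest responder. Klrb1c was nearest to Loxl4 and Kbtbd13 (0.323 and 0.369), Prf1 to Dnah1 and Tlr3 (0.162 and 0.184) and Gzmb to H2-T22 and Ccr1 (0.194 and 0.209). Nkg7 was nearest to Cd276 and Ces2g (0.155 and 0.174), Cd3e to Gas6 and Dscc1 (0.178 and 0.200), and Cd8a to Trip13 and Igf2r (0.263 and 0.290). Cd4 was nearest to Aph1b and Xkr9 (0.255 and 0.274), Gzma to Rgs10 and S100a8 (0.179 and 0.208) and Ncr1 to Scn3b and Mgl2 (0.136 and 0.137). Ncr1 itself varied by only 0.227, Cd3e by 0.341 and Gzma by 0.398, so small differences there need not mean a close match. No 2 of the 10 genes were nearest to each other.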

How the data were processed

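Liver RNA was extracted with TRIzol, and the labels' protocols name both Illumina Tru-Seq libraries and a NEBNext small RNA kit for indexing. FastQC and mm10 come from the submitters' processing notes. Which aligner, counter, annotation and strand setting were used is not given in the sources used here. Raw counts and RPKM per gene were deposited by the authors, and a second table holds deposited counts per exon, per the file headers. No pair of libraries within a group agreed within counting noise.

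Counts of 6 responder and 4 non-responder libraries were fitted over all genes in R 4.3.3 by edgeR 4.0.16 (robust quasi-likelihood F test after filterByExpr and TMM, Benjamini-Hochberg adjustment, threshold 0.05). The filter amounts to 0.269 CPM in at least 4 libraries. The SE is the log2 fold change divided by the root of F. CPM are TMM-scaled over 11 libraries. Values at these depths are limited by few reads; intervals reflect counting error alone, as reads carry no stated molecular identifiers. None of the 10 genes shares exon bases with another gene of the exon table. The 10 genes, the lists (3 listed symbols were not found in the table) and the motifs were chosen with earlier results of these data known. Genes named are the 10, called genes of the lists (the 2 smallest p where none was called) and the 2 nearest patterns. Named after their values were seen were Cd3d, Cd3g, Cd247, Trbc1, Trbc2, Lck, Zap70, Klrd1, Klrk1, Cd244, Tbx21, Eomes, Fasl and Ifng. So were Adgre1, Apoa1, Tat, Alb, Ttr, the endothelial genes and the Klrb1 relatives. Alternatives were RLE, upper quartile and library size scaling, no filter, CPM of 1 in 4 libraries, DESeq2 1.42.0, limma-voom (limma 3.58.1), the untreated library as another group, each library left out, and the title number as a covariate. Exact Poisson intervals used scipy 1.17.1.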

Additional observations from a re-analysis of the deposited data

Results flagged for a closer look

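Among 20 sets of values (10 genes in each of the 2 treated groups), 4 had a library standing apart from the rest of its group by more than Dixon's 95% limit. Chance gives about 1 in 20 for independent values with a normal spread. CPM from few reads need not have that spread, and the sets of Klrb1b and Klrb1c are not independent. Gzma stood at 1.19 CPM in responder replicate 3. Klrb1b stood at 1.86 CPM in responder replicate 6. Klrb1b and Klrb1c stood at 27.2 and 7.67 CPM in non-responder replicate 2, and exon reads of the pair alternated between the genes as given above.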

How the results depend on the processing

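The count of the 10 genes called was 4, and with RLE, upper quartile or library size scaling or with the untreated library as another group it was also 4. DESeq2 and limma-voom called 3 each, and DESeq2 gave Klrb1c no adjusted p. Without a filter 2 passed, with 29217 genes tested against 17610 in the main fit. With the stricter filter 1 passed, where only Cd4, Nkg7 and Klrb1b were tested. With the title number as a covariate 0 passed, 1 gene was called in all (1857 at an unadjusted p under 0.05), and 0 of the list genes. That number nearly separates the groups, so this fit can hardly tell it from response. Leaving out 1 library gave 0 to 4 of the 10 genes, 79 (without non-responder replicate 2) to 1994 of all genes and 0 to 8 of the 79 list genes. All list genes called numbered 8, and 4 without a filter and 4 with the stricter one. Of all genes, edgeR called 1748 and DESeq2 called 3057; for these shifts the cause was not tested. No gene of the 10 that was called changed its sign in any of these fits, while Cd3e, Cd4, Gzma and Ncr1, which never passed, did in 13 cases. The level order per length was the same for all 10 genes by CPM per kilobase of exon. That measure used the same counts and the same gene lengths, so only the library scaling could have changed the order. No paired analysis was possible because the labels give no replicate numbers that groups share. Most values rest on under 100 reads a library, which limits them.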
